A study of Homo sapiens with 64 samples.

Results

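The candidates with a G-quadruplex pattern were the human 3′UTR fragments of an RNA switch screen whose sequence held 4 runs of at least 3 G separated by loops of 1 to 7 bases. The pattern was read from the sequence alone, and 301 of the 3750 candidates (8.03%) carried it. In such a motif, guanines from separate runs can pair in flat tetrads that stack around potassium ions, in DNA as well as in RNA. Short loops and long runs are known to make the fold more stable. In RNA, quadruplexes in untranslated regions have been studied as elements that affect translation, polyadenylation and decay.

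The screen was a massively parallel reporter assay in HEK293, an established human embryonic kidney cell line. Each fragment, and for each a control made by shuffling its bases, was placed behind the eGFP reading frame of a lentiviral reporter that also encodes mCherry as an internal reference. Transduced cells were sorted by the eGFP to mCherry ratio into 8 bins in which eGFP increases with the bin number. There were 2 replicates, called sorts here, and genomic DNA (gDNA) and RNA were sequenced from every bin. All groups shared the cell line, the reporter and the transduced pool, each sequence was built once, and a second screen of the same form measured 4 designed mutants per candidate. The functional screen therefore had 32 libraries, with a total of 10336115 to 114489304 counts in each gDNA library and 851673 to 3468882 in each RNA library. The gDNA library of bin 4 in sort 2 held the highest total. Counts of rare candidates, of gDNA slope calls and of RNA per gDNA calls are given without it as well. In sort 2, gDNA bins 3 to 7 held 79222123 to 114489304 counts, and all other gDNA libraries 10336115 to 15636733. Depth thus went with the bin in sort 2, and leaving out bin 4 alone does not remove this.

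The control no longer held the pattern in 265 of the 301 pairs and still held it in 36. In another 64 pairs only the control held it, and in 3385 neither sequence did. The candidates came from 281 transcripts, and 30 of them formed 15 pairs in which the stretch of one occurs in the fragment of the other, so they were not all independent. In 11 of these pairs the stretches were identical, and in 4 they differed in their ends or were shifted. The deposited table names fragments by transcript and part, does not pair them with genes or positions, and none of the 3055 transcript identifiers was matched by the gene table used here.

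The stretches below, from the first to the last G run, span the range of loops and runs and carry the results that follow. Each is the shortest match, so a first G run of more than 3 is shown by its last 3 G only. Bases are 5′ to 3′, and capitals mark runs of 3 or more G. A loop may itself be a G, so a longer run can be split by a G counted as a loop, as in the last run of candidate A. A match built from 4 whole runs was held by 290 of the 301 candidates. The first 4 have short loops and were chosen after their values were seen, since they were far rarer in the cells than their controls. Candidate E has a loop of 7 bases and was chosen for contrast with them. Candidates F to K carry the differences in abundance, sorting or RNA, and candidates L and M are those whose mutants are described at the end.
Candidate A: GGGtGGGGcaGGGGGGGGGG
Candidate B: GGGaGGGtGGGGGcaGGG
Candidate C: GGGaGGGGGtGGGGaGGGGG
Candidate D: GGGtGGGGtGGGtGGG
Candidate E: GGGtacGGGtgaaagaGGGGtacacaGGG
Candidate F: GGGaGGGaaccctGGGcaGGG
Candidate G: GGGtgaGGGGGGcacaGGGGactGGGG
Candidate H: GGGtGGGcacaGGGattcGGGG
Candidate J: GGGagaGGGGGaGGGaGGGG
Candidate K: GGGatGGGGctGGGtagttGGGG
Candidate L: GGGcGGGaggtgccGGGGGtGGGG
Candidate M: GGGagaGGGaGGGcacGGG

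The stretch, with its first run cut in this way, ran from 15 to 35 bases, with a median of 22, inside windows of 183 to 186 bases. The longest loop was 1 base in 21 candidates, 2 in 40, 3 in 31, 4 in 59, 5 in 48, 6 in 48 and 7 in 54. Only 16 candidates held a match with runs of at least 4 G, and 21 held 2 or more separate matches. The middle of the stretch lay in the first part of the window in 152 candidates and in the second in 149. The fragments were rich in G, at 33.9% ± 5.06 (SD, n = 301), against 26.7% ± 6.94 (SD, n = 3449) in candidates without the pattern. Every control had exactly the base counts of its candidate, so base composition was the same within all 301 pairs.

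The folds predicted in silico differed between candidates and controls. With quadruplexes allowed, the predicted minimum energy structure held a quadruplex in 129 of the 301 candidates (42.9%) and in 45 of their controls. Over all candidates the counts were 299 of 3750 (7.97%), against 184 controls (4.91%). The mean minimum free energy of the candidates was -80.6 kcal per mol without quadruplexes and -84.5 with them, and that of the controls was -77.8 and -79.0. These are predictions for isolated RNA fragments and were not measured in the cells.

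The clearest feature of these candidates was how rare many of them were in the transduced cells. Abundance was expressed as a share of each gDNA library relative to an even share, so that 1 is an even split over the 7500 sequences, and averaged over the 16 gDNA libraries. The median candidate with the pattern was at 0.767, its controls at 1.12. Candidates below 0.1 of an even share numbered 51 of 301 (16.9%), while 4 of their controls (1.33%) and 56 of the 3449 candidates without the pattern (1.62%) were so rare. The 16 libraries are treated as repeated readings of 1 pool of cells, and each sequence was built once, so these shares are described and not tested.

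Set against its own control, the median candidate was 0.46 log2 units lower, from -0.45 in sort 1 to -0.55 in sort 2, and the pair differences of the sorts correlated with r = 0.938 over the 301 pairs, which share the pool of cells. The median was -0.05 over candidates without the pattern. At least 4-fold lower than the control were 71 candidates (23.6%), against 4.27% over all pairs. At least 4-fold higher were 4 candidates (1.33%), against 1.04% over all pairs. In 48 candidates (15.9%) all 16 libraries lay under all 16 of the control, against 2.13% over all pairs, and in 2 (0.664%) all lay over them, against 0.613%. The deficit was thus one-sided, and it ran through the candidates unevenly. Without the gDNA library of bin 4 in sort 2, 50 candidates were below 0.1 of an even share, 69 were at least 4-fold lower than their control and 53 had all libraries under it.

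Loop length ordered the deficit. Where all 3 loops had a single base, the median candidate was 14.6-fold rarer than its control, at -3.87 log2 units, and 17 of 21 candidates were at least 4-fold lower. With a longest loop of 2 bases the median was -1.72 and 17 of 40 were at least 4-fold lower. From a longest loop of 3 bases onward the medians were smaller, at -0.45, -0.49, -0.33, -0.18 and -0.29 for loops of 3, 4, 5, 6 and 7. Those 5 medians differed by little beside the spread within each class: for a longest loop of 3, for example, the middle candidates ranged from -2.05 at the lower quartile to 0.35 at the upper. The share with all 16 libraries under the control was 57.1% at a longest loop of 1, 37.5% at 2, 19.4% at 3, 8.47% at 4, 6.25% at 5, 6.25% at 6 and 7.41% at 7. Without the gDNA library of bin 4 in sort 2, the medians were -4.01 for a longest loop of 1 and -1.60 for 2.

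Run length gave the same picture. The 16 candidates with runs of at least 4 G had a median of -4.53 log2 units, a 23.2-fold deficit, all 16 were below their controls and 15 were at least 4-fold lower. The other 285 had a median of -0.43. Candidates with 2 or more matches had a median of -1.95 (n = 21), against -0.45 with 1 match (n = 280). Where the predicted fold held a quadruplex the median was -1.14 (n = 129), and where it did not it was -0.23 (n = 172). These classes overlap, since short loops, long runs and predicted folds often fell on the same candidates. The position of the stretch in the window made little difference, with medians of -0.45 and -0.48 for the first and second part.

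The individual sequences show how deep the deficit was. Candidate A, ENST00000388913_part_9, had no reads in any gDNA library of sort 1 and at most 2 in a library of sort 2. Its control, with the same bases in another order, ranged from 0.523 to 2.22 times an even share with a median of 1.49. Candidate B, ENST00000308924_part_1, had a count of 0 in all 16 gDNA libraries, while its control ranged from 0.0337 to 1.03 with a median of 0.397. A count of 0 gives no ratio, so none is stated, and the medians above do not depend on the value given to it, since it lies beyond them either way.

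Candidate C, with 3 loops of 1 base, had a median share of 0 and a highest of 0.0938, against 0.533, 1.22 and 2.08 for the lowest, median and highest library of its control. Candidate D, also with loops of 1 base only, ranged from 0.000655 to 0.156 with a median of 0.0398, against 0.282 to 1.88 with a median of 0.868. The groups did not overlap for any of these 4 candidates. Candidate E, whose longest loop has 7 bases, ranged from 0.887 to 1.93 with a median of 1.21, and its control from 0.402 to 2.60 with a median of 1.31. Those ranges overlapped nearly throughout.

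Controls showed the same relation where they alone carried the pattern. In the 64 pairs where only the control held it, the candidate was the more abundant sequence, by a median of 0.34 log2 units, and the control was at least 4-fold rarer in 14 pairs (21.9%). Where the control had lost the pattern the median was -0.48 (n = 265), and where it had kept it -0.32 (n = 36). In the kept pairs both sequences were below an even share, with medians of 0.632 and 0.717. Taken over candidates and controls, the 401 sequences with the pattern had a median share of 0.799 and 59 of them (14.7%) were below 0.1 of an even share, against 0.981 and 82 of 7099 (1.16%) for those without.

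Candidate F, ENST00000340736_part_1, ran the other way. Both it and its control held the pattern, and the control was nearly missing, at a median share of 0.00195 and a highest of 0.0330. The candidate ranged from 0.897 to 2.38 with a median of 1.83. It was one of the 2 candidates with all libraries above those of the control.

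G content was equal within every pair. Among the fifth of candidates with the most G, those with the pattern had a median of -0.43 (n = 161) and those without it 0.05 (n = 532). The median was -0.15 (n = 218) for candidates matching only with loops of up to 12 bases, and -0.05 without the pattern. Of these 218, 5.50% were at least 4-fold lower than their control, against 2.58% without the pattern. All 16 libraries lay under the control in 4.59%, against 0.928%. The mirror pattern, 4 runs of at least 3 C, places the G runs on the other DNA strand and not in the reporter mRNA. The 216 candidates with the C pattern and no G pattern had a median of -0.52, and 42 of them (19.4%) were at least 4-fold lower than their controls. At the median, fragments with G runs on either strand were thus rarer than their controls. The plasmid pool was not analysed here, and at which step of synthesis, cloning, packaging, integration or amplification the sequences became rare was not tested.

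The next question was whether the pattern shifted where cells were sorted, which reports eGFP relative to mCherry. For each pair the change of the gDNA count per bin was compared between candidate and control, on the log2 scale, so that a negative slope difference means that the candidate lay in lower eGFP bins. Of the 299 pairs that reached the count minimum, 5 candidates were lower (1.67%), against 1.63% over all pairs, and 3 were higher (1.00%), against 1.34% (edgeR quasi-likelihood test, Benjamini-Hochberg adjusted p under 0.05 over 3745 pairs). The median slope difference was 0.01, against 0.00 without the pattern. Shares this near the background are no result about the pattern. Both untested candidates were those with almost no reads, A and B. The p-values here measure the spread between sorted libraries, treated as 1 pool, and that spread may be technical.

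The 2 sorts correlated with r = 0.571 in the difference of mean bin over the 299 pairs, which share the pool of cells. Single candidates did move in both. Candidate G, ENST00000376514_part_18, was the lowest, with a slope difference of -0.94 ± 0.18 per bin (SE, edgeR adjusted p = 0.00195). Bin 1 held 72.6% of its gDNA in sort 1 and 78.3% in sort 2, against 14.6% and 17.9% for its control. Without the gDNA library of bin 4 in sort 2 the slope difference was again -0.94. Its mean bins were 1.56 and 1.58, and those of the control 4.76 and 4.62. It rested on a mean of 435 gDNA counts per library.

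At the other end, candidate H, ENST00000590602_part_8, had a slope difference of 0.64 ± 0.10 (SE, edgeR adjusted p = 0.00044). Its mean bins were 5.40 and 4.77, above the 2.77 and 3.21 of its control. The control had 37.2% and 36.8% of its gDNA in bin 2, the candidate 5.87% and 4.92%. The remaining 4 lower calls had slope differences from -0.58 to -0.36 and the remaining 2 higher calls 0.65 and 0.54.

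All 8 calls were in pairs whose control had lost the pattern, which were 263 of the 299 tested. None of the 36 kept pairs was called by edgeR, the smallest adjusted p being 0.159, and 4 lower and 1 higher had an unadjusted p under 0.05. The median slope difference was 0.02 for lost and -0.08 for kept pairs, and whether these classes differ was not tested. The 90 tested candidates with loops of 1 to 3 bases gave no call, nor did the 14 with runs of at least 4 G. Over all pairs, 1.63% were lower and 1.34% higher. These classes were also rare in gDNA, at median shares of 0.232 (n = 92) and 0.0444 (n = 16). Their lack of calls is therefore no result about short loops or long runs. Without the gDNA library of bin 4 in sort 2, the counts rose to 17 lower (5.69%) and 18 higher (6.02%), against 5.79% and 5.58% over all pairs, so the candidates stayed near the background. With mean bins compared by limma in place of slopes, 30 of 298 candidates were lower (10.1%), against 9.03% over all pairs, and 27 were higher (9.06%), against 7.08%. With a minimum of 1000 counts for both sequences, 3 of 225 were lower, against 1.6% over all pairs, and 3 were higher, against 1.43%.

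The slope differences of RNA and gDNA correlated with r = 0.499 over the 299 pairs, a description of readings from the same sorted cells. In RNA, 18 candidates were lower (6.02%), against 4.99% over all pairs, and 19 were higher (6.35%), against 6.54%. Candidates G and H were among them, at -0.57 (edgeR adjusted p = 0.0105) and 0.64 (edgeR adjusted p = 0.000178). Of the 8 candidates called in gDNA and the 37 called in RNA, 4 were called in both, all with the same sign. Kept pairs gave 5 lower and 0 higher calls and lost pairs 13 and 19, a difference that was not tested. By edgeR, 14 of the 16 candidates with runs of at least 4 G were tested in RNA. Of these, 5 were higher (35.7%), against 6.54% over all pairs, and 1 was lower (7.14%), against 4.99%. The count minimum applied to gDNA only. Of the higher ones, 1 had a mean of 0.81 RNA counts per library, ranging from 0 to 4, another 21.4 and another 35.8. With counts this low, no result about long runs is drawn. With a minimum of 1000 counts, 10 of 225 candidates were lower (4.44%), against 4.78% over all pairs, and 8 were higher (3.56%), against 6.12%.

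RNA per gDNA, a measure of how much reporter RNA each integrated copy gave, differed most often. Here 30 candidates were lower than their control (10.0%), against 8.52% over all pairs, and 41 were higher (13.7%), against 5.42%. Higher calls were also frequent in like classes, so they were not particular to the G pattern. Of 215 tested candidates with the C pattern and no G pattern, 26 were higher (12.1%) and 14 lower (6.51%), with a median of 0.20. Of the 218 matching only with loops of up to 12 bases, 23 were higher (10.6%) and 13 lower (5.96%). The median difference was 0.06 log2 units, against -0.10 without the pattern, and the SD among candidates was 1.16, against 0.908. Pairs whose control kept the pattern gave 7 lower and 7 higher calls of 36, lost pairs 23 and 34 of 263. The 64 pairs in which only the control held the pattern gave 10 lower and 4 higher calls, with a median of -0.34. Without the gDNA library of bin 4 in sort 2, 37 candidates were lower (12.4%), against 10.4% over all pairs, and 40 were higher (13.4%), against 6.19%, and the median of the candidates changed sign to -0.02.

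The share of higher calls differed between classes of gDNA count. Among the 50 candidates with under 500 mean gDNA counts, 19 were higher and 1 lower, with a median of 1.03 log2 units. Among the 44 with 500 to 2000 counts, 8 were higher (18.2%) and 4 lower (9.09%), with a median of 0.07, while of the 370 such candidates without the pattern 21 were higher (5.68%) and 33 lower (8.92%), with a median of -0.30. Among the 205 with 2000 or more counts, 14 were higher (6.83%) and 25 lower (12.2%), with a median of -0.01, and of the 3025 without the pattern 130 were higher (4.30%) and 250 lower (8.26%), with a median of -0.08. A small gDNA count is the denominator of this ratio, so rarity and a high ratio cannot be told apart in the first class. In candidates without the pattern, under 500 counts, the median was -0.05 (n = 51), with 11 higher and 6 lower. With a minimum of 1000 counts for both sequences, 16 of 225 candidates were higher (7.11%), against 4.41% over all pairs, and 24 were lower (10.7%), against 8.16%.

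Some differences in RNA per gDNA were large, with few counts behind 1 of their readings. The lowest was ENST00000322941_part_4, with a stretch of 26 bases and a longest loop of 7, whose control kept the pattern. Relative to the median sequence of each library, its RNA per gDNA ranged from 0.0103 to 0.249 with a median of 0.0359, and its control from 0.315 to 4.52 with a median of 0.851. The libraries did not overlap, and the difference was -4.08 ± 0.41 log2 units (SE, edgeR adjusted p = 1.18e-12), at a mean of 3660 gDNA counts but 2 to 42 RNA counts per library, against 49 to 654 for the control. Both sequences of this pair carried the pattern.

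Candidate J, ENST00000289228_part_1, was the second highest. Its relative RNA per gDNA ranged from 1.05 to 16.9 with a median of 3.26, and that of its control, which also kept the pattern, from 0.0187 to 0.940 with a median of 0.313. The libraries again did not overlap. The difference was 3.57 ± 0.57 log2 units (SE, edgeR adjusted p = 1.24e-06), at a mean of 612 gDNA counts. The candidate was also the rarer sequence in gDNA, at -1.93 log2 units, with a mean of 2318 gDNA counts for its control, and it had 26 to 178 RNA counts per library, against 1 to 141.

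The pairs of related fragments place like G runs in different surroundings. In the 15 pairs, the slope differences had opposite signs in 8 pairs for gDNA and 8 for RNA, and RNA per gDNA in 6. In the 11 pairs with identical stretches these counts were 5, 5 and 4. Stretch K stood at bases 133 to 155 of one fragment and 40 to 62 of the next part of the same transcript. RNA per gDNA was 2.13 ± 0.42 log2 units above the control in the first (SE, edgeR adjusted p = 8.33e-05) and -1.61 ± 0.34 in the second (SE, edgeR adjusted p = 0.000262). The first rested on a mean of 262 gDNA counts per library, with a lowest of 11, and the second on 1875. In abundance they lay at -4.84 and -1.04. In the other pair with both members called in RNA per gDNA, parts 13 and 14 of ENST00000441788, whose stretches are not identical, both were above their control, at 2.46 and 0.77 log2 units (edgeR adjusted p = 0.000875 and 0.0451). In 1 other pair, parts 15 and 16 of 1 transcript, the gDNA slope differences were alike, at -0.58 ± 0.15 and -0.58 ± 0.18 (SE), with edgeR adjusted p of 0.0297 and 0.0743.

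The mutagenesis screen changed bases inside the fragments, and some changes broke the pattern. It held 96 sets of 4 mutants made from 88 of the candidates. The pattern was kept by all 4 mutants in 69 sets, lost by all in 2 and lost by some in 25, and 57 of the 384 mutants were without it. In these 25 sets, from 24 candidates, mutants that had lost it were compared with those that had kept it. The mutants were designed to strengthen or weaken a stem, and those of the 25 sets differed from their candidate by 3 to 15 bases, with a median of 7. Of their 49 mutants without the pattern, 39 also carried a change outside the stretch and 10 did not. The design had a strengthened and a weakened mutant for each of 2 alternative conformations. In 10 sets, those of candidates L and M among them, both strengthened mutants had lost the pattern and both weakened ones had kept it. In 5 sets both mutants of the same conformation had lost it, and in another 5 both of the other. Within such a set, loss of the pattern cannot be told apart from the designed contrast.

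Mutants that had lost the pattern were more abundant in gDNA than their kept partners in 16 sets and less in 9. The median difference was 0.11 log2 units, and it ranged from -0.63 to 4.83. Set against the median of the same split of mutants over candidates without the pattern, 18 of the 25 sets lay above it. At least 2-fold more abundant without the pattern were 4 sets, at 1.68, 1.95, 2.51 and 4.83 log2 units, and none was 2-fold less abundant. Over the sets of candidates without the pattern, 1.28% reached 2-fold in either direction. These values are a description, with no test, as each mutant was built once.

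The set of candidate L was the extreme. Its 2 mutants without the pattern had mean gDNA values of 2211 and 1414 normalized counts, and its 2 mutants with the pattern 42.8 and 87.4. Both mutants without it carried changes in the second G run, among them G49C in each, counting from 1 at the start of the fragment. RNA per gDNA relative to the median sequence had medians of 0.861 and 1.21 without the pattern and 27.3 and 11.8 with it. The latter ranged over the libraries from 2.96 to 93.5 and from 2.70 to 135. The difference in RNA per gDNA was -4.06 ± 0.31 log2 units (SE, limma adjusted p = 5.87e-23). This p-value, like the others for mutants and for RNA per gDNA, measures the spread between sorted libraries, which are treated as 1 pool. The mutants that were rare in gDNA were thus those with a high ratio, as among the candidates.

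Across the 25 sets, 11 (44.0%) differed in RNA per gDNA, 6 lower and 5 higher without the pattern, against 8.14% over all sets and the splits used (limma, adjusted p under 0.05). The median was -0.05 log2 units, with 13 sets below 0 and 12 above. All 4 sets with at least 2-fold more gDNA without the pattern were among the lower, from -4.06 to -1.10. Candidate M gave the reverse in mutants of similar abundance. Its mutants without the pattern lay at 1.14 and 1.08 and those with it at 0.397 and 0.367, at mean gDNA values of 2311, 2720, 2037 and 2651. The difference was 1.70 ± 0.13 log2 units (SE, limma adjusted p = 1.43e-22). Differences of this size thus went both ways.

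Sorting differed less. The slope difference between mutants without and with the pattern had a median of 0.01 log2 units per bin and ranged from -0.09 to 0.18. By limma, 2 of 25 sets (8.00%) were called, against 5.67% over all sets and the splits used, and both lay in higher eGFP bins without the pattern. They were the sets of ENST00000263205_part_6, at 0.13 ± 0.03 (SE, limma adjusted p = 0.00661), and of ENST00000313408_part_19, at 0.13 ± 0.04 (SE, limma adjusted p = 0.0128). In the latter set only 1 mutant had lost the pattern, with mean bins of 5.04 and 4.82. A mutant that kept it was near, at 4.89 and 4.75. The other mutants that kept it lay at 4.39 and 4.55, and at 4.37 and 4.16. Only the mutants that lost the pattern are grouped here, and other changes of the same mutants were not separated from its loss.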

How the data were processed

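Per the labels and methods, the authors removed adapters with cutadapt, matched reads to the library with BWA and counted them with featureCounts. SAMtools was also named. The functional screen was deposited as raw counts per sequence. The mutagenesis screen was deposited as a normalized signal, counts that the authors divided by median-of-ratios factors. Its low values were not whole multiples of 1 step, so no count test was run on it.

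Members and lists were chosen with earlier results of these data known. Named candidates were those with an adjusted p under 0.05 (up to 6 per direction and result), the extreme gDNA slopes and the 4 mutant sets of smallest p; names were printed for at most 2 per direction. Candidates A to E were added after seeing their values.

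Candidate and control were fitted together over all pairs with edgeR 4.0.16 in R 4.3.3 (sequence by bin, or sequence by molecule), with median-of-ratios scaling and a minimum of 10 counts for the mean gDNA count of both sequences. Mutants were fitted with limma 3.58.1 on log2(signal + 1). P-values were adjusted by Benjamini-Hochberg over all pairs or sets. Folding used ViennaRNA 2.7.2. Shares were compared as log2 with 0.001 added to each. In counts simulated for the 3745 pairs, a gDNA slope difference of 0.6 was recovered in 86.0% of changed pairs and one of 0.3 in 16.0%. Library totals, 10336115 to 114489304 counts for gDNA and 851673 to 3468882 for RNA, set the precision. Alternatives covered scaling, count minimum, DESeq2 1.42.0, blocks, single libraries and sorts left out, and other definitions of the pattern.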

Additional observations from a re-analysis of the deposited data

How the results depend on the processing

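The counts of rare candidates kept within 1.5 times under every alternative run for them, all chosen after seeing the data: 50 to 66 candidates below 0.1 of an even share, 68 to 72 at least 4-fold lower, and 48 to 71 with all libraries under the control, where leaving out sort 2 gave the 71. Candidates without the pattern with all libraries under the control went from 32 to 47 without sort 1, 126 without sort 2 and 46 without sort 2 bin 4, of 3449. The 5 lower and 3 higher gDNA calls did not hold as counts. DESeq2 gave 11 and 10, mean bins 30 and 27, total count scaling 3 and 8, and leaving out the gDNA library of sort 2 bin 4 gave 17 and 18. TMM scaling and a minimum of 1000 counts each gave 3 lower, and a block for each library 8 higher. The replicate block gave 3 lower. Sort numbers were not used to pair the libraries in the main fits. Deviations of the same sort correlated from -0.19 to 0.28 in gDNA, over 0.1 in 4 of 28 pairs of bins. In RNA they were all positive, from 0.01 to 0.32, over 0.1 in 8 of 28. Leaving out 1 sort gave 0 to 8 lower and 0 to 13 higher. Loops of up to 12 bases gave 12 and 8, and loops of up to 3 bases or runs of at least 4 G gave 0 and 0, over other numbers of candidates. Over all pairs, gDNA calls were 61 lower and 50 higher, against 0 and 0 without sort 1, 108 and 95 without sort 2, 217 and 209 without sort 2 bin 4, and 134 and 122 with the library block. DESeq2 gave 114 and 109 and mean bins 338 and 265. RNA slopes gave 10 lower and 8 higher with a minimum of 1000, and 0 to 3 lower and 2 to 3 higher without 1 sort. RNA per gDNA without 1 sort gave 7 to 21 lower and 10 to 28 higher. It gave 16 higher with a minimum of 1000, 64 with loops of up to 12, 5 lower and 17 higher with loops of up to 3, and 0 and 4 with runs of at least 4 G. The mutant sets higher in gDNA, 2, became 0 to 1 without 1 sort. The slope of ENST00000265340_part_1, -0.68 and not significant, was -0.61 without sort 1 and reversed to 0.35 with the library block, 0.18 without sort 2 and 0.65 without sort 2 bin 4. That of another candidate, 1.14, was 1.34 without sort 1 and reversed to -0.17 without sort 2, but had no gDNA counts in sort 1, so that the last value is no measurement. The cause was not tested. Of 462 comparisons of single candidates or sets, 392 kept their direction and side of the threshold. Candidates with few gDNA counts limit every ratio and slope above.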
